A study of Mus musculus with 6 samples.

Results

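Cadherins and protocadherins are calcium-dependent adhesion molecules, and every gene on the array named Cdh with a number, or with a name that starts with Pcdh, was taken as a member. The rule found 98 probes of 70 genes among the 34788 genes tested. Of the 70 genes, 23 are cadherins, 35 are protocadherins of the alpha, beta and gamma clusters (7 Pcdha, 22 Pcdhb and 6 Pcdhg genes), and 12 are protocadherins outside the clusters. Where a gene had several probes, which held for 17 members, it was represented by the probe with the highest mean signal over the 6 arrays.

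RNA was measured on 6 Agilent one-colour microarrays, each carrying a pool of 6 independent experiments. Male BALB/c mice, an inbred strain, aged 8 weeks had received 1 dose into the nose of PAMAM dendrimers, branched polyamidoamine polymers, at 0.15 mg/kg, or of saline, and tissue was taken 24 h later. The arrays were 1 each of PAMAM and saline olfactory bulb (OB), PAMAM and saline hippocampus, and PAMAM and saline cortex. No group has a second array, so a region rests on 2 pools of different treatment and a treatment on 3 pools of different region. Whether the same mice gave all regions is not stated in the labels, and p-values measure only the spread between these 6 arrays.

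Classical cadherins join cells through extracellular repeats and bind catenins, which link them to actin, through their cytoplasmic end. Type I members such as N-cadherin form strong junctions, and type II members mark subsets of neurons and take part in sorting and synapse formation. Non-clustered protocadherins also mark subsets of neurons. Clustered protocadherins are switched on in different combinations in single neurons, and in mice the combination lets the branches of a neuron recognise one another. In the alpha and gamma clusters each gene has its own first exon joined to cytoplasmic exons that the cluster shares, while beta genes are single-exon genes.

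The array's 60-base oligos show how close the type II relatives are. The following 3 are shown because the genes differed between regions in different ways, although the oligos read the same catenin-binding stretch of the coding sequence. Capitals mark the 35 bases that are identical in all 3 when the oligos are aligned without gaps. Positions are those of the array files (mm9): Cdh9 at chr15:16785915-16785974 on the plus strand, Cdh6 at chr15:12963981-12964040 on the minus strand, and Cdh10 at chr15:18943342-18943401 on the plus strand. Each is written 5′ to 3′ in the sense of the transcript.
Cdh9: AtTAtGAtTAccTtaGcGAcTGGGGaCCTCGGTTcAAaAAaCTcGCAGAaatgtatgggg
Cdh6: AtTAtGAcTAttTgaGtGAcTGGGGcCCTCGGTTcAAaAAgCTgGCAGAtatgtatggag
Cdh10: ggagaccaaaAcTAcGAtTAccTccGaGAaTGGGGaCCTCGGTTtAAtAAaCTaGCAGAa
The Cdh9 and Cdh6 oligos were identical at 50 of 60 aligned bases (83.3%), those of Cdh9 and Cdh10 at 41 of 50 (82.0%), and those of Cdh6 and Cdh10 at 35 of 50 (70.0%). Whether an oligo also captures RNA of a relative was not tested.

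A further 3 oligos, in lower case throughout, belong to genes that the regional results turn on. The Cdh4 oligo lies at chr2:179581965-179582024 (plus strand) in the part that encodes the extracellular domain. It is not the probe used for the gene. The Cdh8 oligo lies at chr8:101554638-101554697 (minus strand) in the part that encodes the cytoplasmic domain. The Pcdh10 oligo spans 2 exons between positions 45196739 and 45203246 of chromosome 3 (plus strand).
Cdh4: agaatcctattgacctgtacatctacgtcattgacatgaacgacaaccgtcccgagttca
Cdh8: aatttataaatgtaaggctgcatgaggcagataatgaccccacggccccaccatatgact
Pcdh10: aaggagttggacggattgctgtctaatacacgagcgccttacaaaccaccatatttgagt

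A level below is log2 of the array's processed signal minus that array's 75th percentile, so 0 is a bright probe, and a difference of 1 is 2-fold. Levels of different probes are not compared with each other. A member counted as measured on an array where the scanner software called its spot well above background. By this mark 57 of the 70 members (81.4%) were measured on all 6 arrays, against 60.3% of all genes. Another 9 were measured on some arrays (Cdh1, Cdh3, Cdh23, Pcdh12, Pcdhac1, Pcdhb11, Pcdhga1, Pcdhga5 and Pcdhgb1), and 4 on none (Cdh16, Cdh17, Cdh24 and Pcdhb1).

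Regions were compared with limma on all 6 arrays, with region and treatment as terms, and a gene is called where its Benjamini-Hochberg adjusted p over all 34788 genes was under 0.05. The fit has 2 residual degrees of freedom, and it cannot separate a region difference that depends on treatment from array noise. The contrasts OB minus hippocampus and OB minus cortex share the OB arrays. All pools are bulk tissue, in which fewer cells of a type and less RNA per cell cannot be told apart. Marker genes mostly bore out the region labels. All 10 OB neuron markers were called higher in OB than in each other region (median log2 5.64 over hippocampus and 5.29 over cortex). Of 10 hippocampal markers 9 were called higher in hippocampus than in cortex. Of 9 cortical markers 6 were called lower and 2 higher in hippocampus than in cortex. Other cell types differed too. Of 10 oligodendrocyte markers 9 were called lower in OB than in each other region, and of 10 choroid plexus markers 10 were called higher in hippocampus than in cortex. Their part in the differences below was not tested.

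Between OB and hippocampus, 42 of the 70 members were called, 32 higher and 10 lower in OB. The share of all genes called was 31.6%, with 13.4% higher and 18.2% lower. Among the members called, 9 were higher and 5 lower by 2-fold or more, against 10.2% of all genes (5.03% higher and 5.19% lower). Between OB and cortex, 33 members were called, 21 higher and 12 lower in OB, and 33.4% of all genes were called (13.0% higher and 20.4% lower). Of these members 9 rose and 6 fell by 2-fold or more, as did 10.6% of all genes (5.06% higher and 5.5% lower). Between hippocampus and cortex 20 members were called, 5 higher and 15 lower in hippocampus, where 11.3% of all genes were called (4.71% higher and 6.56% lower). There Pcdh20 and Pcdh19 were higher and Cdh7 and Pcdh7 lower by 2-fold or more, against 3.25% of all genes (1.74% higher and 1.51% lower). These shares include genes at background, and larger shares of the measured genes were called. Of 57 members measured on all 6 arrays, 30 were called higher and 10 lower in OB than in hippocampus. Of 20979 genes so measured, 3889 were higher and 5762 lower. Between OB and cortex the counts were 18 and 12 members and 3638 and 6528 genes. Between hippocampus and cortex they were 5 and 15 members and 1344 and 2098 genes. Without the trend of variance on signal, limma called 19, 20 and 0 members in the 3 contrasts. Of all 34788 genes it then called 4649, 4954 and 0. In the last contrast 23 members and 5231 of all genes had an unadjusted p under 0.05. The calls between hippocampus and cortex, of members and of all genes, thus rest on that part of the model. The members' split followed the scaling in part. Normexp background correction gave 15 higher and 13 lower between OB and cortex, and 3900 and 10183 of all genes. Quantile normalization gave 4 higher and 5 lower between hippocampus and cortex, and 684 and 704 of all genes. The members' median was 0.42 between OB and hippocampus, where that of all genes was -0.10, and 0.25 between OB and cortex, where that of all genes was -0.14. This all-gene median between OB and cortex was -0.02 under quantile normalization and -0.24 under normexp.

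**Figure D1:**
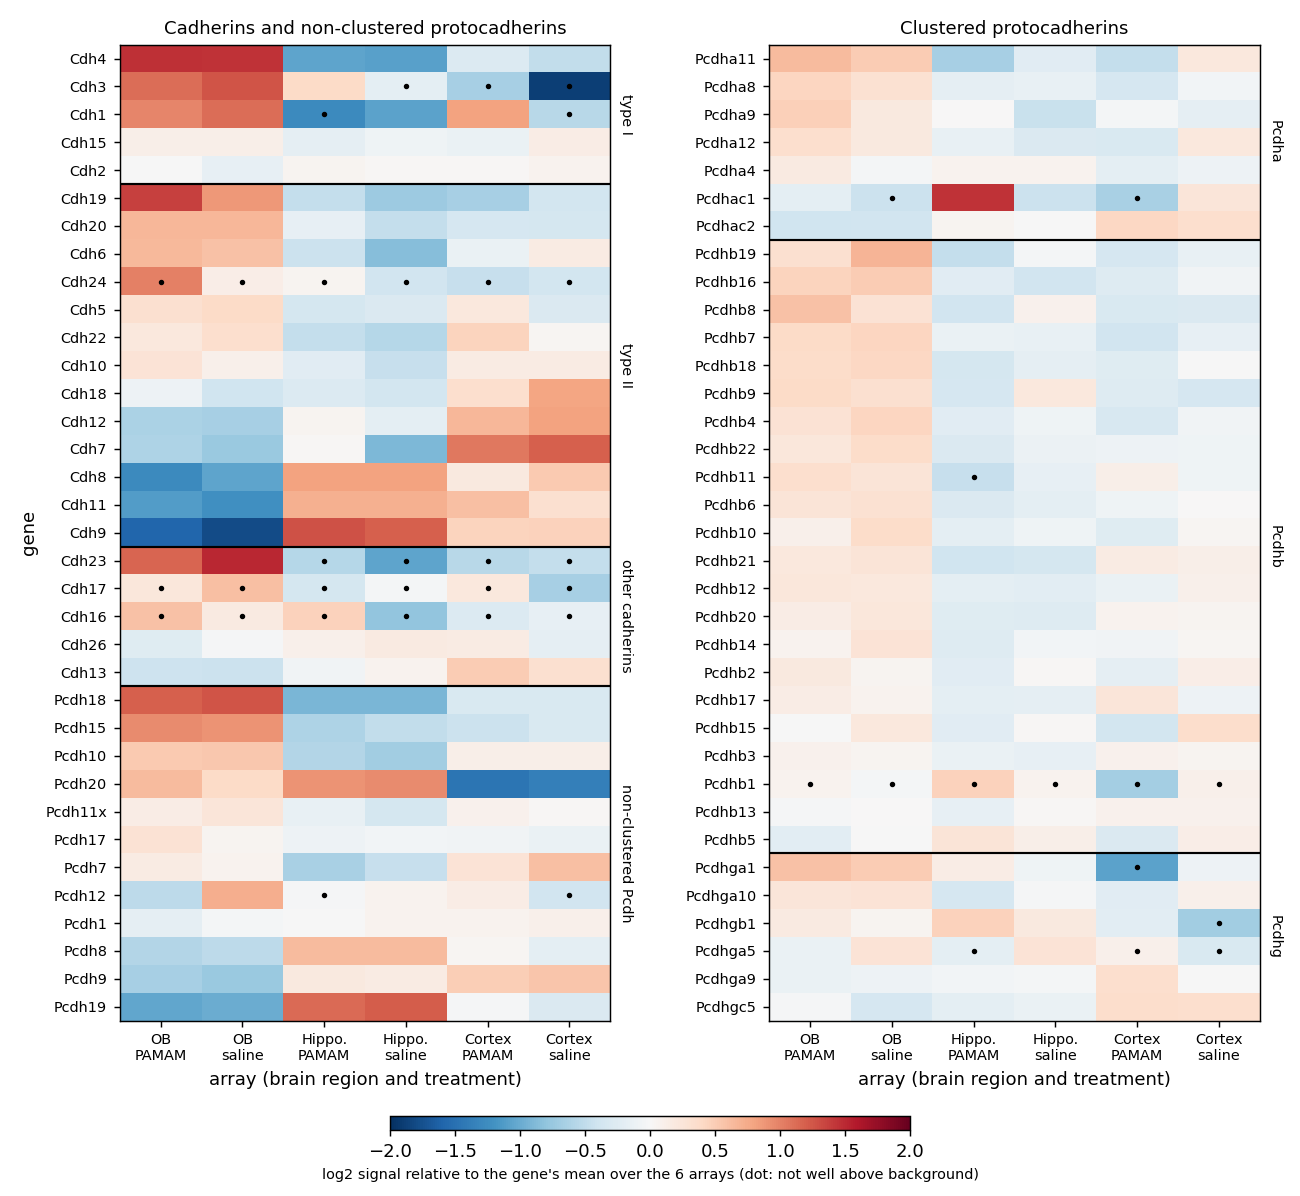
Each cell is the log2 signal of 1 gene (rows, by family) on 1 array (columns, by brain region and treatment), relative to that gene's mean over the 6 arrays; red is higher, blue is lower and a dot marks a probe not well above background. Cdh4, Pcdh18 and Pcdh15 stand out as high in both OB arrays, Cdh9, Cdh8, Cdh11 and Pcdh19 as low there, and the clustered genes show paler colours.

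Among type I cadherins the neural pair behaved differently. Cdh2, N-cadherin, the main neural type I cadherin, read 3.76 and 3.61 in PAMAM and saline OB, 3.83 and 3.79 in PAMAM and saline hippocampus, and 3.79 and 3.84 in PAMAM and saline cortex. Its differences of -0.13 ± 0.07 (SE) between OB and each other region were not called (adjusted p = 0.207 and 0.185). Its second probe read 2.83 and 2.78 in PAMAM and saline OB, below the other 4 arrays (3.02 to 3.07), with differences of -0.23 from hippocampus and -0.25 from cortex. Cdh4, R-cadherin, its close relative first found in retina, stood at 2.28 and 2.26 in PAMAM and saline OB, against -0.24 and -0.27 in PAMAM and saline hippocampus and 0.55 and 0.32 in PAMAM and saline cortex. Both OB arrays lay far above the other 4, and the cortex arrays above those of the hippocampus. Cdh4 was 5.75-fold higher in OB than in hippocampus (log2 2.52 ± 0.08, adjusted p = 9.25e-09) and 3.56-fold higher than in cortex (log2 1.83 ± 0.08, adjusted p = 7.07e-08).

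The other Cdh4 oligos moved the same way. The extracellular one printed above was measured on both OB arrays alone, at -3.10 and -3.12 in PAMAM and saline OB. The other, later in the transcript, was 2.60 higher (log2) in OB than in hippocampus. Cdh15, M-cadherin of muscle, was not called in any region contrast, with differences from -0.14 to 0.26.

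Cdh1 and Cdh3, the epithelial E- and P-cadherins, were dim. Cdh1, printed on the array as 10 spots, stood at -2.90 and -2.76 in PAMAM and saline OB, -5.15 and -4.94 in PAMAM and saline hippocampus, and -3.06 and -4.42 in PAMAM and saline cortex. It was called higher in OB than in hippocampus (log2 2.21 ± 0.40, adjusted p = 0.00147), but not under quantile normalization (adjusted p = 0.068). In the hippocampus 5 of 10 spots were measured in the saline pool and 0 of 8 in the PAMAM pool, so a level there is near the limit of measurement. Cdh3 was measured on both OB arrays and on neither cortex array. It was called higher in OB than in cortex on fitted values (log2 2.47 ± 0.40, adjusted p = 0.000781). With the cortex values below measurement the bound was at least 1.96-fold, and the bound itself was not tested. Of 10 markers of meninges and fibroblasts, 7 were called higher in OB than in hippocampus and 10 higher than in cortex, and their summed signal was 37.5 and 39.4 in PAMAM and saline OB, 24.8 and 23.8 in PAMAM and saline hippocampus, and 17.6 and 9.35 in PAMAM and saline cortex.

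Of the 13 type II cadherins, 6 were called higher and 4 lower in OB than in hippocampus, 3 higher and 6 lower in OB than in cortex, and 2 higher and 6 lower in hippocampus than in cortex. In these contrasts 31.6%, 33.4% and 11.3% of all genes were called, and the difference from that share was not tested. Cdh8, Cdh9 and Cdh11 were lowest in OB, and Cdh6, Cdh19 and Cdh20 highest there. Cdh9, which in mice takes part in the mossy fibre synapses of the hippocampus, stood at -2.57 and -2.76 in PAMAM and saline OB, against 0.30 and 0.22 in PAMAM and saline hippocampus and -0.53 and -0.52 in PAMAM and saline cortex. No region overlapped another. It was 7.60-fold lower in OB than in hippocampus (log2 -2.93 ± 0.12, adjusted p = 3.59e-08), 4.40-fold lower in OB than in cortex (log2 -2.14 ± 0.12, adjusted p = 2.82e-07) and 1.73-fold higher in hippocampus than in cortex (log2 0.79 ± 0.12, adjusted p = 0.0014).

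Cdh8, a synaptic type II cadherin, read -2.12 and -1.89 in PAMAM and saline OB, -0.03 and -0.04 in PAMAM and saline hippocampus, and -0.65 and -0.31 in PAMAM and saline cortex. It was 3.91-fold lower in OB than in hippocampus (log2 -1.97 ± 0.12, adjusted p = 7.79e-07) and 2.87-fold lower than in cortex (log2 -1.52 ± 0.12, adjusted p = 4.71e-06). Cdh11, first described in osteoblasts, read -2.05 and -2.16 in PAMAM and saline OB, -0.22 and -0.23 in PAMAM and saline hippocampus, and -0.34 and -0.61 in PAMAM and saline cortex. Its difference was -1.88 ± 0.12 between OB and hippocampus (adjusted p = 8.75e-07) and -1.63 ± 0.12 between OB and cortex (adjusted p = 2.29e-06). A further Cdh11 oligo had the same direction and smaller differences of -0.60 and -0.58.

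Cdh7, Cdh12 and Cdh18 were highest in cortex. Cdh7 read -2.32 and -2.44 in PAMAM and saline OB, -1.68 and -2.60 in PAMAM and saline hippocampus, and -0.64 and -0.51 in PAMAM and saline cortex. The hippocampus pools differed from each other more than the OB and hippocampus means did. Cdh7 was 3.49-fold lower in OB than in cortex (log2 -1.80 ± 0.22, adjusted p = 0.000114) and 2.96-fold lower in hippocampus than in cortex (log2 -1.57 ± 0.22, adjusted p = 0.00112), a call lost under quantile normalization (adjusted p = 0.082). Cdh12 fell in OB to -0.68 and -0.71 in PAMAM and saline pools, against 0.62 and 0.76 in PAMAM and saline cortex (log2 -1.38 ± 0.11, adjusted p = 3.63e-06), and was also called lower in hippocampus than in cortex (log2 -0.81 ± 0.11, adjusted p = 0.0007, and 0.0572 under quantile normalization). Cdh18 was lower in OB than in cortex by the probe used (log2 -0.82 ± 0.21, adjusted p = 0.0114) but not by its other probe (log2 0.32). Both Cdh18 probes read lower in hippocampus than in cortex, by -0.88 and -0.79. The Cdh18 calls were lost without the saline cortex array (adjusted p = 0.0839 against OB and 0.0791 against hippocampus), and that against OB also without the saline OB array (adjusted p = 0.114).

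Cdh19, known from neural crest and glial precursors, read -1.23 and -1.72 in PAMAM and saline OB, -3.07 and -3.31 in PAMAM and saline hippocampus, and -3.26 and -2.95 in PAMAM and saline cortex. Both OB pools lay above the other 4. Its difference was 1.71 ± 0.23 between OB and hippocampus (adjusted p = 0.0002) and 1.63 ± 0.23 between OB and cortex (adjusted p = 0.000274). Of 6 markers of olfactory ensheathing cells, 5 were called higher and 1 lower in OB than in each other region. The summed signal of these markers was 190.9 and 197.4 in PAMAM and saline OB. In PAMAM and saline hippocampus it was 183.5 and 164.5, and in PAMAM and saline cortex 191.0 and 209.5. Their part in the Cdh19 difference was not tested. Cdh20 was 1.98-fold higher in OB than in hippocampus (adjusted p = 0.000907) and was also called higher than in cortex (log2 SE 0.16, adjusted p = 0.000752), with -1.27 and -1.26 in PAMAM and saline OB against -2.26 and -2.28 in PAMAM and saline cortex.

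Cdh6, first found in kidney, read -1.24 and -1.31 in PAMAM and saline OB, -2.32 and -2.74 in PAMAM and saline hippocampus, and -2.02 and -1.72 in PAMAM and saline cortex. It was 2.38-fold higher in OB than in hippocampus (log2 1.25 ± 0.19, adjusted p = 0.000458), the opposite direction to Cdh9, whose oligo shares most of its bases. Between OB and cortex the Cdh6 difference was 0.59 ± 0.19 (adjusted p = 0.0346). That call was lost under quantile normalization (adjusted p = 0.129) and normexp (adjusted p = 0.0759), and without the PAMAM cortex array the difference was 0.32. Cdh10, whose oligo is closer to that of Cdh9 (82.0% identical) than to that of Cdh6 (70.0%), was called higher in OB than in hippocampus by 0.53 ± 0.10 (adjusted p = 0.00161) and did not differ detectably between OB and cortex (0.02 ± 0.10, adjusted p = 0.893). Cdh22, a brain and pituitary cadherin, stood lowest in the hippocampus. Its difference was 0.79 ± 0.10 for OB minus hippocampus (adjusted p = 0.000162) and -0.76 ± 0.10 for hippocampus minus cortex (adjusted p = 0.000755, and 0.0872 under quantile normalization).

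Cdh5, the VE-cadherin of endothelial junctions, read -0.95 and -0.89 in PAMAM and saline OB, -1.62 and -1.57 in PAMAM and saline hippocampus, and -1.06 and -1.56 in PAMAM and saline cortex. It was called higher in OB than in hippocampus (log2 0.67 ± 0.16, adjusted p = 0.00843). That call was lost without the saline OB array (adjusted p = 0.054) and under quantile normalization (adjusted p = 0.11). Of 10 other endothelial markers, 1 was called higher and 1 lower in OB than in hippocampus, with a median of 0.07. Cdh24 was at background on every array.

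Of the other 5 cadherins, Cdh13 and Cdh26 were measured on all arrays. Cdh13, T-cadherin, which is held by a lipid anchor and has no cytoplasmic domain, read 1.99 and 1.98 in PAMAM and saline OB, 2.33 and 2.48 in PAMAM and saline hippocampus, and 2.92 and 2.73 in PAMAM and saline cortex. The 3 regions did not overlap and their order was cortex, hippocampus, OB. It was called lower in OB than in cortex (log2 -0.84 ± 0.08, adjusted p = 1.96e-05), and a dim second probe, at -3.54 and -4.09 in PAMAM and saline OB, did not move that way, so that the median over both probes was 0.056 (adjusted p = 0.773). Cdh23, which forms the tip links of sensory hair cells with protocadherin 15, was measured in both OB pools at -4.84 and -4.51 and on no other array. It was called higher in OB than in hippocampus on fitted values (log2 2.15 ± 0.44, adjusted p = 0.0033), a call lost under normexp (adjusted p = 0.278). The hippocampus values lay below measurement, and the bound there was at least 1.09-fold. The bound itself was not tested. No fold could be bounded against cortex.

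**Figure D2:**
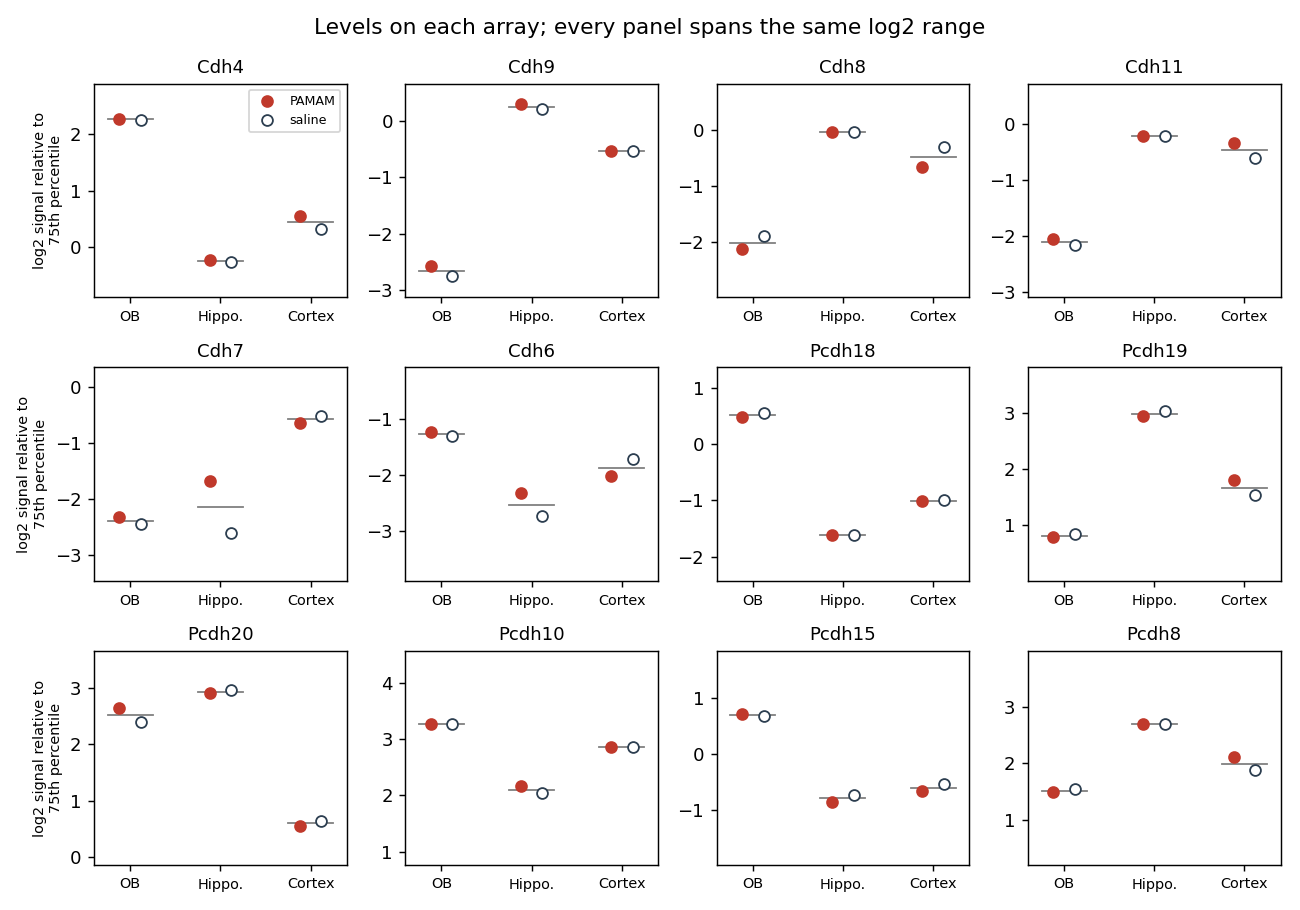
Log2 signal relative to the array's 75th percentile for 12 genes in olfactory bulb (OB), hippocampus and cortex, with PAMAM pools as filled points, saline pools as open points and a line at their mean. Cdh4 reached 2.28 and 2.26 in OB, Cdh9 lay at -2.57 and -2.76 there, and Pcdh20 was low in cortex, at 0.55 and 0.64.

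Of the 12 non-clustered protocadherins, 6 were called higher and 4 lower in OB than in hippocampus, 5 higher and 3 lower in OB than in cortex, and 3 higher and 4 lower in hippocampus than in cortex. The shares of all genes called in these contrasts were 31.6%, 33.4% and 11.3%, and the difference from other families was not tested. Pcdh19, mutated in a human X-linked epilepsy, read 0.79 and 0.84 in PAMAM and saline OB, 2.95 and 3.03 in PAMAM and saline hippocampus, and 1.80 and 1.54 in PAMAM and saline cortex. It was 4.52-fold lower in OB than in hippocampus (log2 -2.18 ± 0.09, adjusted p = 3.72e-08) and 2.50-fold higher in hippocampus than in cortex (log2 1.32 ± 0.09, adjusted p = 9.26e-06). Pcdh8, the activity-regulated arcadlin of rat hippocampus, had the same order, with 1.49 and 1.54 in PAMAM and saline OB, 2.70 and 2.70 in PAMAM and saline hippocampus, and 2.11 and 1.88 in PAMAM and saline cortex. Its difference between OB and hippocampus was -1.18 ± 0.08 (adjusted p = 1.23e-06).

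Pcdh20 separated cortex from both other regions. It read 2.64 and 2.39 in PAMAM and saline OB, 2.91 and 2.96 in PAMAM and saline hippocampus, and 0.55 and 0.64 in PAMAM and saline cortex. It was 5.08-fold higher in hippocampus than in cortex (log2 2.34 ± 0.09, adjusted p = 3.12e-07) and 3.79-fold higher in OB than in cortex (log2 1.92 ± 0.09, adjusted p = 7.24e-08). By the probe used, Pcdh9 was lowest in OB, at 0.81 and 0.73 in PAMAM and saline pools. In PAMAM and saline cortex it read 1.96 and 2.03 (OB minus cortex log2 -1.23 ± 0.07, adjusted p = 4.25e-07). The other 2 Pcdh9 probes read -1.0 and -0.50 for the same contrast. Between OB and hippocampus the probe used gave -0.88 ± 0.07 (adjusted p = 5.13e-06), and the other 2 read -0.93 and -0.05. That call was lost with the median over the Pcdh9 probes (log2 -0.05, adjusted p = 0.85).

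Pcdh18 and Pcdh15 were highest in OB. Pcdh18 read 0.49 and 0.55 in PAMAM and saline OB, -1.62 and -1.61 in PAMAM and saline hippocampus, and -1.01 and -1.0 in PAMAM and saline cortex. The PAMAM and saline pools of each region were nearly level, and no region overlapped another. It was 4.39-fold higher in OB than in hippocampus (log2 2.13 ± 0.10, adjusted p = 1.46e-07) and 2.88-fold higher than in cortex (log2 1.53 ± 0.10, adjusted p = 1.43e-06). Pcdh15, the partner of cadherin 23 in tip links, read 0.71 and 0.67 in PAMAM and saline OB, -0.85 and -0.72 in PAMAM and saline hippocampus, and -0.66 and -0.53 in PAMAM and saline cortex. Its difference from hippocampus was 1.47 ± 0.10 (adjusted p = 1.11e-06). The 3 other Pcdh15 probes measured on all arrays read 1.15, 0.89 and 0.51 for it, and the call was lost with the median over all Pcdh15 probes (adjusted p = 0.13).

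Pcdh10, which in mice guides striatal axons, and Pcdh7 were lowest in hippocampus. Pcdh10 read 3.27 and 3.28 in PAMAM and saline OB, 2.16 and 2.05 in PAMAM and saline hippocampus, and 2.86 and 2.87 in PAMAM and saline cortex. It was 2.25-fold higher in OB than in hippocampus (log2 1.17 ± 0.06, adjusted p = 3.36e-07) and lower in hippocampus than in cortex (log2 -0.76 ± 0.06, adjusted p = 3.85e-05). Pcdh7 read -1.27 and -1.08 in PAMAM and saline hippocampus, against -0.34 and -0.02 in PAMAM and saline cortex (log2 -1.0 ± 0.12, adjusted p = 0.000375). Pcdh17 and Pcdh11x were called higher in OB than in hippocampus by 0.25 ± 0.07 and 0.44 ± 0.13, and each call was lost without either of 2 of the 4 arrays (for Pcdh17 the PAMAM OB or PAMAM hippocampus array, adjusted p = 0.454 and 0.285, and for Pcdh11x the saline OB or saline hippocampus array, adjusted p = 0.282 and 0.226). Pcdh1 was not called in any region contrast, nor was Pcdh12, an endothelial protocadherin measured on 4 arrays.

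The families differed in how far their members spread over the regions. The highest minus the lowest region mean had a median of 1.25 (log2) over the 13 type II cadherins and 1.18 over the 12 non-clustered protocadherins, against 0.52 over the 35 clustered genes and 0.55 over all genes. A spread of at least 1 was seen in 8 of 13 type II cadherins, in 8 of 12 non-clustered protocadherins and in 2 of 35 clustered genes (Pcdha11, and Pcdhga1 with 1 array at background), and in 19.2% of all genes. Among genes measured on all 6 arrays, where the median of all genes was 0.40, the medians were 1.32 over 12 type II cadherins, 1.18 over 11 non-clustered protocadherins and 0.50 over 29 clustered genes. Over the 18 type I and type II cadherins together the median was 1.32, and 1.25 over the 15 measured on all 6 arrays. For type I alone it was 2.21 over 5 genes but 0.26 over the 3 measured on all 6 arrays. The 5 other cadherins had a median of 0.64. These are descriptions of lists and carry no test. Members of the clusters share a locus, so they are not independent of each other.

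**Figure D3:**
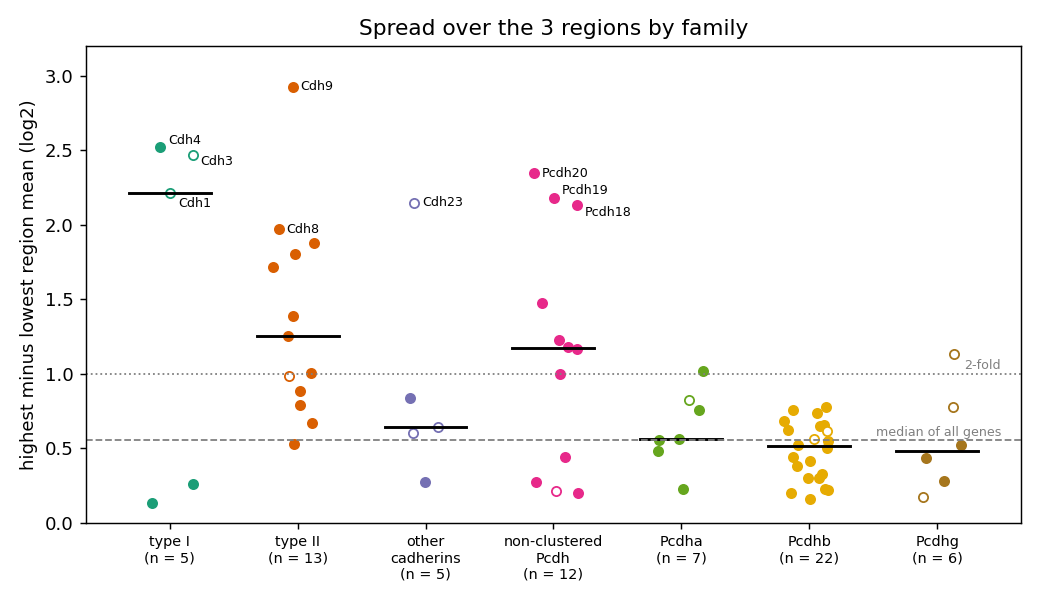
Each point is 1 gene's highest minus lowest region mean (log2), by family; filled points were well above background on all 6 arrays, open points were not, and black lines are family medians. Type II cadherins (median 1.25) and non-clustered protocadherins (1.18) spread farther than the Pcdha, Pcdhb and Pcdhg genes, which lie near the dashed median of all genes (0.55).

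The clustered protocadherins lie side by side on chromosome 18 and differed by less, mostly one way. Of the 22 Pcdhb genes, 13 were called higher and 0 lower in OB than in hippocampus, beside the shares of all genes given above. The median over the 22 was 0.43 and that of all genes -0.10, and 20 of 22 lay above 0, as did 14690 of 34788 genes. Between OB and cortex 8 were called higher and 0 lower, with a median of 0.29. Of the 22 genes 18 had their highest region mean in OB and 16 their lowest in hippocampus. Among the 20 measured on all 6 arrays these counts were 17 and 15. Of all genes so measured, 35.1% were highest in OB and 5810 of 20979 lowest in hippocampus. No Pcdhb difference reached 2-fold. Without any 1 of the 4 arrays of the contrast with hippocampus, 8 or 9 were called, and in the contrast with cortex 3 were called without the PAMAM OB array and 4 without the saline OB array, all higher. Without the variance trend 5 were called in the contrast with hippocampus and 3 in that with cortex, also all higher. Normexp background correction left the direction and gave medians of 0.28 and 0.15.

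Pcdhb16 had the largest called Pcdhb difference between OB and hippocampus. It read 1.22 and 1.28 in PAMAM and saline OB, 0.56 and 0.39 in PAMAM and saline hippocampus, and 0.52 and 0.71 in PAMAM and saline cortex. Both OB pools lay above the other 4, by 0.78 ± 0.09 over hippocampus (adjusted p = 9.52e-05) and 0.64 ± 0.09 over cortex (adjusted p = 0.000377). Pcdhb21 read 2.31 and 2.36 in PAMAM and saline OB, 1.70 and 1.74 in PAMAM and saline hippocampus, and 2.26 and 2.22 in PAMAM and saline cortex. There the hippocampus stood apart, with 0.62 ± 0.06 for OB minus hippocampus (adjusted p = 3.42e-05) and -0.53 ± 0.06 for hippocampus minus cortex (adjusted p = 0.000416). Pcdhb3, printed as 10 spots on each array, was not called (adjusted p = 0.108 for OB minus hippocampus and 0.198 for hippocampus minus cortex). It read -0.16 and -0.18 in PAMAM and saline OB, -0.37 and -0.40 in PAMAM and saline hippocampus, and -0.15 and -0.18 in PAMAM and saline cortex, so that both hippocampus arrays lay below the other 4. Pcdhb16, Pcdhb21 and Pcdhb3 are given as examples chosen after their values were seen.

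In the alpha cluster the members differed in direction. Pcdha8, Pcdha9, Pcdha11 and Pcdha12 were called higher in OB than in hippocampus, by 0.48 to 1.02. The Pcdha8 probe is listed for several genes, and a second probe listed for Pcdha8 alone read 0.96. Without the PAMAM OB array the other 3 calls were lost (adjusted p = 0.153 for Pcdha9, 0.212 for Pcdha11 and 0.206 for Pcdha12). Those of Pcdha9 and Pcdha12 were also lost without the saline hippocampus array (adjusted p = 0.255 and 0.191), and that of Pcdha9 without the saline OB array (adjusted p = 0.154). The probe named Pcdhac2 is listed by its accessions for Pcdha4, Pcdha9, Pcdhac1 and Pcdhac2, and so may read the exons that transcripts of the cluster share. It read 2.80 and 2.82 in PAMAM and saline OB, 3.26 and 3.19 in PAMAM and saline hippocampus, and 3.61 and 3.53 in PAMAM and saline cortex. It was called lower in OB than in hippocampus (-0.42 ± 0.06, adjusted p = 0.000449) and than in cortex (-0.76 ± 0.06, adjusted p = 5.68e-06), and lower in hippocampus than in cortex (-0.34 ± 0.06, adjusted p = 0.00498). A second probe, listed for Pcdhac2 alone, read -0.47 and -0.68 for the first 2 of these contrasts.

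The probes named Pcdha4, Pcdha8 and Pcdhga9 are also listed for several genes, so what they measure is uncertain. Without these and the Pcdhac2 probe, 40 members were called between OB and hippocampus, 30 between OB and cortex and 19 between hippocampus and cortex. Pcdhga9 read 5.54 and 5.56 in PAMAM and saline OB, 5.61 and 5.63 in PAMAM and saline hippocampus, and 6.0 and 5.66 in PAMAM and saline cortex. It was called lower in OB than in cortex (-0.28 ± 0.09, adjusted p = 0.0426), but the call was lost without the PAMAM OB or the PAMAM cortex array (adjusted p = 0.333 and 0.392) and the direction turned under quantile normalization (0.044). Of the 6 Pcdhg genes 0 were called between OB and hippocampus, and 3 of the 6 were measured on all arrays. Pcdhga1 was measured on both OB arrays but on 1 of 2 cortex arrays, so its fitted difference of 1.13 ± 0.36 between OB and cortex (adjusted p = 0.0326) rests in part on a value at background. It fell to 0.114 under normexp (adjusted p = 0.481), and lost the call without either the PAMAM OB or the PAMAM cortex array (adjusted p = 0.214 and 0.272).

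Genes that work with cadherins moved in both directions. Of 17 catenins and other adhesion partners on the array, 4 were called higher and 3 lower in OB than in hippocampus, and 3 higher and 5 lower in OB than in cortex, where 31.6% and 33.4% of all genes were called. The neuronal catenins were among the lower: OB minus cortex was -0.83 ± 0.06 for Ctnna2, alpha-N-catenin (adjusted p = 2.2e-06), and -0.87 ± 0.08 for Ctnnd2, delta-catenin (adjusted p = 1.17e-05). Ctnnb1, beta-catenin, was 0.40 ± 0.065 higher in OB than in cortex (adjusted p = 0.00074). Of 23 genes of protocadherin signalling and regulation, 9 were called higher and 8 lower in OB than in hippocampus. Ctcf, the insulator protein that binds clustered protocadherin promoters, was not called (0.06 ± 0.08, adjusted p = 0.642), while the cohesin subunits Stag1 and Stag2 were called higher in OB by 0.27 ± 0.07 and 0.31 ± 0.06.

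Of 21 larger cadherin relatives, 6 were called higher and 8 lower in OB than in hippocampus, and 7 higher and 4 lower in OB than in cortex. In these contrasts 31.6% and 33.4% of all genes were called, and the difference from that share was not tested. Cdhr1, known from photoreceptors, had the largest difference, at 4.79 and 4.85 in PAMAM and saline OB, against -1.39 and -1.36 in PAMAM and saline hippocampus and -1.88 and -2.25 in PAMAM and saline cortex. Fat1, a giant cadherin, was 2.06 ± 0.08 higher in OB than in hippocampus (adjusted p = 1.97e-08). Celsr2, a seven-pass cadherin, was called lower there (-1.25 ± 0.09, adjusted p = 1.46e-06).

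PAMAM moved none of the members past the test. Over the 3 regions, limma called 0 of 70 members, against 0.00862% of all genes (3 genes). At an unadjusted p under 0.05 were 3 members (4.29%), all lower with PAMAM (Pcdhb10, Pcdhb14 and Pcdhb15), against 6.12% of all genes. Pcdhb15 had the smallest p. It read -0.69 in PAMAM and -0.48 in saline OB, -0.91 in PAMAM and -0.66 in saline hippocampus, and -1.06 in PAMAM and -0.33 in saline cortex. It was lower with PAMAM than with saline in every region (log2 -0.40, limma adjusted p = 0.545). Of the 22 Pcdhb genes 19 had a fitted difference below 0, as did 17866 of 34788 genes. The Pcdhb median was -0.09 and that of all genes -0.01. Leaving out either array of the OB or hippocampus pair brought the adjusted p of Pcdhb15 to between 0.0139 and 0.0308. Leaving out either cortex array called Cdh7 and Pcdhac1 instead, both higher with PAMAM (adjusted p from 0.0265 to 0.0441). With 1 array left out, 1.37% to 2.01% of all genes were called, so 1 or 2 of 70 members is near the share of all genes.

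Within a region there is 1 array of each treatment, so no test can be made and differences are values only. In OB 1 of 65 members measured on both arrays differed 2-fold, against 0.259% of all genes: Pcdh12, at -4.88 in PAMAM and -3.63 in saline OB. In the hippocampus 1 of 60 did, against 0.653% of all genes: Pcdhac1, with -2.63 in PAMAM and -4.50 in saline hippocampus. Between these pools all 10 choroid plexus markers were higher with PAMAM (median 0.77) and all 10 hippocampal neuron markers lower (median -0.21), and their part in the Pcdhac1 value was not tested. Neither stayed 2-fold under normexp background correction. In the cortex 0 of 58 did, against 0.768% of all genes. The next largest in OB were 0.49 for Cdh19, -0.41 for Pcdhga5, -0.37 for Pcdhb19 and -0.32 for Cdh23. In the hippocampus they were 0.92 for Cdh7, -0.56 for Pcdhb9, -0.47 for Pcdhb8 and 0.45 for Pcdha9. In the cortex the largest were -0.73 for Pcdhb15, -0.68 for Pcdha11, -0.51 for Pcdha12, 0.50 for Cdh5 and -0.45 for Cdh18.

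Cdh1 was the member with the widest difference in the cortex, where it was measured in the PAMAM pool alone. There 9 of 9 spots were well above background in PAMAM cortex and 2 of 8 in saline cortex, with levels of -3.06 and -4.42. By these levels it was 2.56-fold higher in PAMAM cortex. The saline level lay above the lowest measured signal on its array (-4.455), so the bound is the measured difference itself. That fold rests on 1 array of each treatment and was not tested. In OB Cdh1 read -2.90 with PAMAM and -2.76 with saline. Beside it, all 10 markers of meninges and fibroblasts were higher in PAMAM than in saline cortex (median log2 0.70), and all 10 choroid plexus markers were too (median 1.30). Hippocampal neuron markers were higher in 8 of 9 measured (median 0.52) and red blood cell markers in 5 of 5 (median 0.49). OB neuron markers were lower in 7 of 8 measured (median -0.42). Cortical neuron markers were lower in 8 of 9 (median -0.07) and oligodendrocyte markers in 7 of 10 (median -0.09). Endothelial markers were higher in 7 of 10 (median 0.18), and Cdh5 read -1.06 in PAMAM and -1.56 in saline cortex. The part of these cells in the Cdh1, Cdh5 and other cortex values was not tested.

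**Figure D4:**
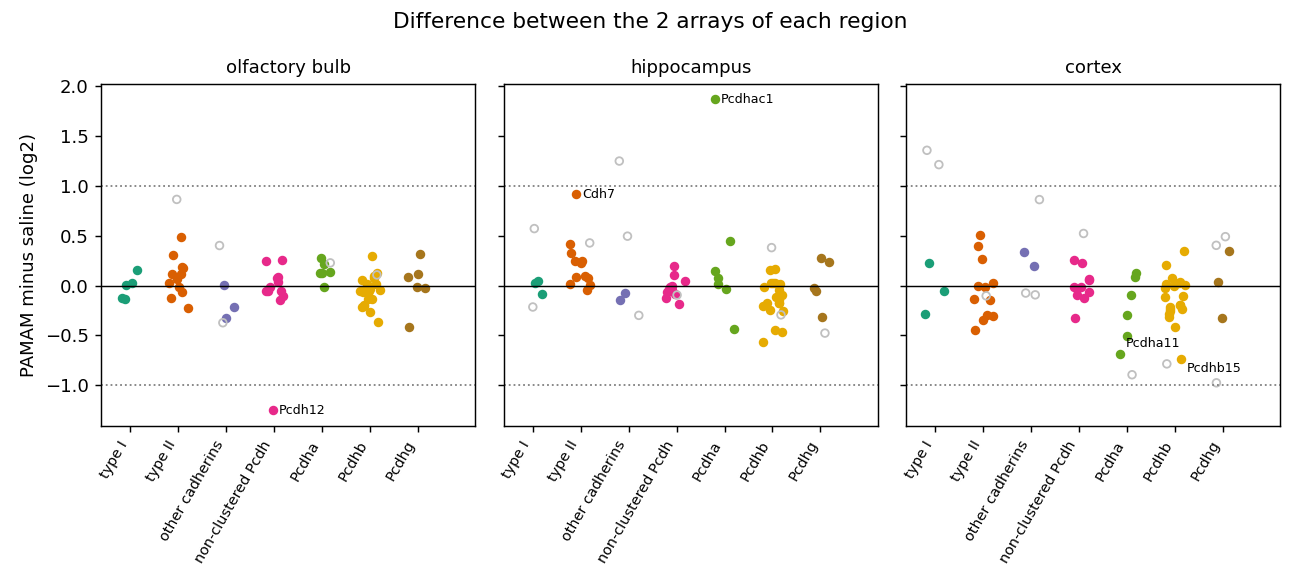
Each point is the log2 difference of 1 gene between the PAMAM and the saline array of a region, by family; coloured points were well above background on both arrays, grey open points were not, and dotted lines mark 2-fold. Pcdh12 in olfactory bulb and Pcdhac1 in hippocampus are the coloured points beyond 2-fold, and with 1 array of each treatment no test applies.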

How the data were processed

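Per the file headers, Agilent Feature Extraction 10.7.3.1 wrote the scanner output (design 028005, probes placed on mm9), in which the deposited spot intensity is linear. The authors' deposited value table is on a log2 scale. Its column medians are -0.0626 and -0.0914 for PAMAM and saline OB, 0.0254 and -0.0462 for PAMAM and saline hippocampus, and 0.0349 and 0.0436 for PAMAM and saline cortex. Its values tracked the scanner values minus each probe's median (r from 0.999867 to 0.999966 over 29553 probes), which settled scale, centring and direction.

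Here the processed signal was scaled to the array's own 75th percentile (452.0 to 709.6, control spots left out) on the log2 scale. Dropping outlier spots removed 15 of 55681 probes, and repeated spots were averaged. No spot was saturated. The number of arrays limits the precision. Genes keep the array's names, and 69 of 70 members' symbols matched RefSeq by accession. limma 3.58.1 (R 4.3.3) fitted region and treatment with eBayes and a variance trend, with Benjamini-Hochberg adjustment, and was tested on simulated data. The text names the 8 largest called members of each region contrast measured on all its arrays, bounds for dim ones, the 5 largest PAMAM differences of each region and a set list of cadherins and protocadherins. Members and lists were chosen with earlier results of these data known. A probe dim in 1 group only gets a bound: the bright mean over the higher of the dim value and the lowest measured signal on that array. Alternatives changed the scaling, background correction, probe choice, dim-probe filter, variance model, covariates, the source of values and the arrays included.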

Additional observations from a re-analysis of the deposited data

How the results depend on the processing

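Of the 95 calls of members in the 3 region contrasts, 30 held under every alternative, and 66 with any 1 array left out. Among the 30 were both OB contrasts of Cdh4, Cdh8, Cdh9, Cdh11, Cdh19, Cdh20, Pcdh18 and Pcdh19. Pcdh15 lost both OB calls with the median of its probes (adjusted p = 0.134 and 0.144). Of all 34788 genes, 4649, 4954 and 0 were called in the 3 region contrasts without the variance trend. Quantile normalization called 1388 of them between hippocampus and cortex. Without the variance trend, 19 members were called between OB and hippocampus, 20 between OB and cortex and 0 between hippocampus and cortex, and quantile normalization gave 9 in that last contrast; with 1 array left out the counts ran from 34 to 45, 26 to 39 and 19 to 24. For PAMAM over the regions, leaving out 1 array called 1 to 2 members and 1.37% to 2.01% of all genes. Within OB and within hippocampus, normexp gave 0 members at 2-fold, and without the filter on dim probes 2 passed in hippocampus and 2 in cortex. The median spread over regions of all cadherins was 1.0, with 0.69 under normexp, 1.32 over those measured on at least 2 arrays, 1.26 over the saline arrays alone (chosen after seeing the data) and 1.0 to 1.29 with 1 array left out; that of the clustered protocadherins was 0.28 under normexp. Reversed were Cdh13 with the median of its probes (0.056 between OB and cortex, 0.204 between hippocampus and cortex) and Pcdhga9 between OB and cortex under quantile normalization (0.044). The cause of these changes was not tested. Leaving out the probes listed for several genes was also chosen after seeing the data. No paired analysis was possible because the labels carry no replicate numbers, but the fit with both terms already compares treatments within regions and regions within treatments.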
